A study of Mus musculus with 29 samples.

Results

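Homeostatic microglia genes were examined across 25 CUT&RUN peak lists as 9 members: Tmem119, Siglech, Csf1r, Fcrls, Olfml3, Sparc, Slc2a5, Adgrg1 and Selplg. Each gene body was extended by 20 kb on each side (GRCm38, GENCODE vM21), and every called region that overlapped such a window was kept, each position counted once per list. The windows held 675 distinct regions of 1008691 in all lists, from 52 for Slc2a5 to 104 for Csf1r, and the 9 genes stand against 21938 protein-coding genes treated in the same way. The windows had a median length of 55.8 kb, against 57.4 kb for all protein-coding genes. The windows of Tmem119 and Selplg share 21981 bp, and 7 of the 9 windows also reach into other protein-coding genes: Iscu lies beside Tmem119, Tubgcp5 beside Siglech, Pdgfrb and Hmgxb3 beside Csf1r, Gm10964 and Hipk1 beside Olfml3, Gpr157 and Slc2a7 beside Slc2a5, Adgrg3 beside Adgrg1, and Coro1c beside Selplg.

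CUT&RUN directs a nuclease with an antibody to the places where a protein sits on chromatin and sequences the fragments released there. IRF8, a transcription factor of the myeloid lineage, was mapped with a GFP antibody in female mice of the IRF8-EGFP strain. Libraries came from sorted microglia (the resident macrophages of the brain) at postnatal day 9 (P9, 4 libraries), at postnatal day 14 (P14, 3 libraries) and in adults aged 3 months (3 libraries), and from peritoneal macrophages (3 libraries). PU.1, H3K27ac and H3K4me1 were mapped in sorted microglia of adult female mice aged 3 months, labelled WT or IRF8KO, with 2 libraries for each target and genotype. The titles give no age for the peritoneal macrophages. The labels do not say how the knockout was made, in which cells it acts, or how many animals entered a library.

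The 9 genes are widely used to define microglia at rest. Among the receptors, Csf1r (chr18:61100598-61132149, plus strand) encodes the receptor for CSF1 and IL-34 on which microglia depend for survival. Adgrg1 (chr8:94974751-95014217, plus strand) encodes an adhesion G protein-coupled receptor. Siglech (chr7:55768178-55778925, plus strand) encodes a sialic acid-binding lectin. Fcrls (chr3:87250758-87263738, minus strand) encodes an Fc receptor-like protein. Of the other surface proteins, Tmem119 (chr5:113793729-113800516, minus strand) is a transmembrane microglia marker and Selplg (chr5:113818536-113832644, minus strand) encodes the ligand of P-selectin. Olfml3 (chr3:103722222-103738001, minus strand) and Sparc (chr11:55394500-55423183, minus strand) encode secreted glycoproteins, and Slc2a5 (chr4:150119283-150144169, plus strand) encodes a fructose transporter. IRF8 binds DNA weakly alone and pairs with PU.1, an ETS factor needed by all macrophages, on composite sites that join an ETS and an IRF motif. H3K27ac marks active enhancers and promoters, and H3K4me1 marks enhancers whether active or primed.

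Depth and list length differed between groups. IRF8 lists held 1168 to 2068 distinct regions at P9, 7931 to 19243 at P14, 17048 to 29667 in adults and 9788 to 23163 in peritoneal macrophages, from 7.25 to 24.7 M (mega) fragments per library. The least deep histone library was KO H3K27ac replicate 2, with 8.57 M fragments and 17 Mb covered by its regions, against 65.6 to 87.6 Mb in the other H3K27ac libraries. As a check of the labelled cell type, H3K27ac regions lay within 1 kb of a start site in both WT libraries for 6 of 7 microglia markers, for 1 of 8 peritoneal macrophage markers, for 2 of 6 border macrophage markers, for 1 of 5 neuron markers, for 1 of 5 astrocyte markers, for 2 of 5 oligodendrocyte markers, for 2 of 4 endothelial markers, and for none of the 4 B cell or 4 neutrophil markers. In both KO libraries the same held for 3 of 7 microglia markers (the 7 include the members Tmem119, Siglech and Fcrls), for 3 of 6 border macrophage markers and for none of the other lists. Replicates are separate libraries per the labels, which do not say whether they came from separate animals.

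The first comparison followed IRF8 at the 9 genes from P9 through P14 to adulthood. At P9, 5 of 9 had no IRF8 region in any of the 4 libraries and 2 of 9 had one in every library, while 2.27% of all protein-coding genes had one in every P9 library. At P14, 7 of 9 had a region in every library, against 22.1% of all genes, and in adults 8 of 9 had a region in every library, a state reached by 40.8% of all protein-coding genes. The number of regions rose with stage at 8 of 9 genes, while it rose at 46.0% of the 16472 protein-coding genes with any region. Each gene was tested with an exact two-sided permutation test of the Jonckheere-Terpstra statistic, which asks whether values increase along an ordered series, adjusted by Benjamini-Hochberg over all those genes.

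Among the receptors, Siglech had exactly 1 region in each P9 library, 4 in each P14 library, and 6, 6 and 7 in the adult libraries, an adult mean of 6.33 ± 0.58 (SD, n = 3). The 3 stages did not overlap, and this rise had an adjusted p of 0.015 in the exact permutation test. Csf1r had 0, 0, 1 and 0 regions at P9, 4, 6 and 3 at P14, and 5, 11 and 6 in adults (7.33 ± 3.21, SD, n = 3), with an adjusted p of 0.0173 in the same exact test. P9 was below every later library for Csf1r, but P14 and adult libraries overlapped. Adgrg1 had 1 region in each P9 library, 1, 6 and 2 at P14, and 3, 6 and 4 in adults (exact permutation test, adjusted p = 0.0336). Its P14 values spanned the adult range, so the rise of Adgrg1 lay between P9 and adults. Fcrls had no region at P9, 1, 2 and 1 at P14, and 2, 2 and 0 in adults; it was the member that did not pass, with an adjusted p of 0.0666 in the exact permutation test.

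The surface proteins followed the same order. Selplg had no region at P9, 2, 4 and 4 at P14, and 5, 7 and 6 in adults, with no overlap between stages (exact permutation test, adjusted p = 0.015). Tmem119 had 0, 0, 1 and 0 regions at P9, 1, 3 and 2 at P14, and 4, 8 and 3 in adults (exact permutation test, adjusted p = 0.0156). For Tmem119 neighbouring stages met at single values, P9 and P14 at 1 and P14 and adults at 3.

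The secreted proteins and the transporter had adult means of 2.00 (Olfml3), 2.67 (Sparc) and 2.33 (Slc2a5) regions. These lay above the 1.33 of Fcrls and below the means of the other members. Olfml3 went from 0 in all P9 libraries to 2, 2 and 1 at P14 and 3, 2 and 1 in adults (exact permutation test, adjusted p = 0.0211). Sparc went from 0 at P9 to 1, 2 and 0 at P14 and 2, 5 and 1 in adults (exact permutation test, adjusted p = 0.0336). Slc2a5 went from 0 at P9 to 0, 2 and 1 at P14 and 1, 3 and 3 in adults (exact permutation test, adjusted p = 0.0283). P14 and adult libraries overlapped for all 3 of these genes.

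**Figure D1:**
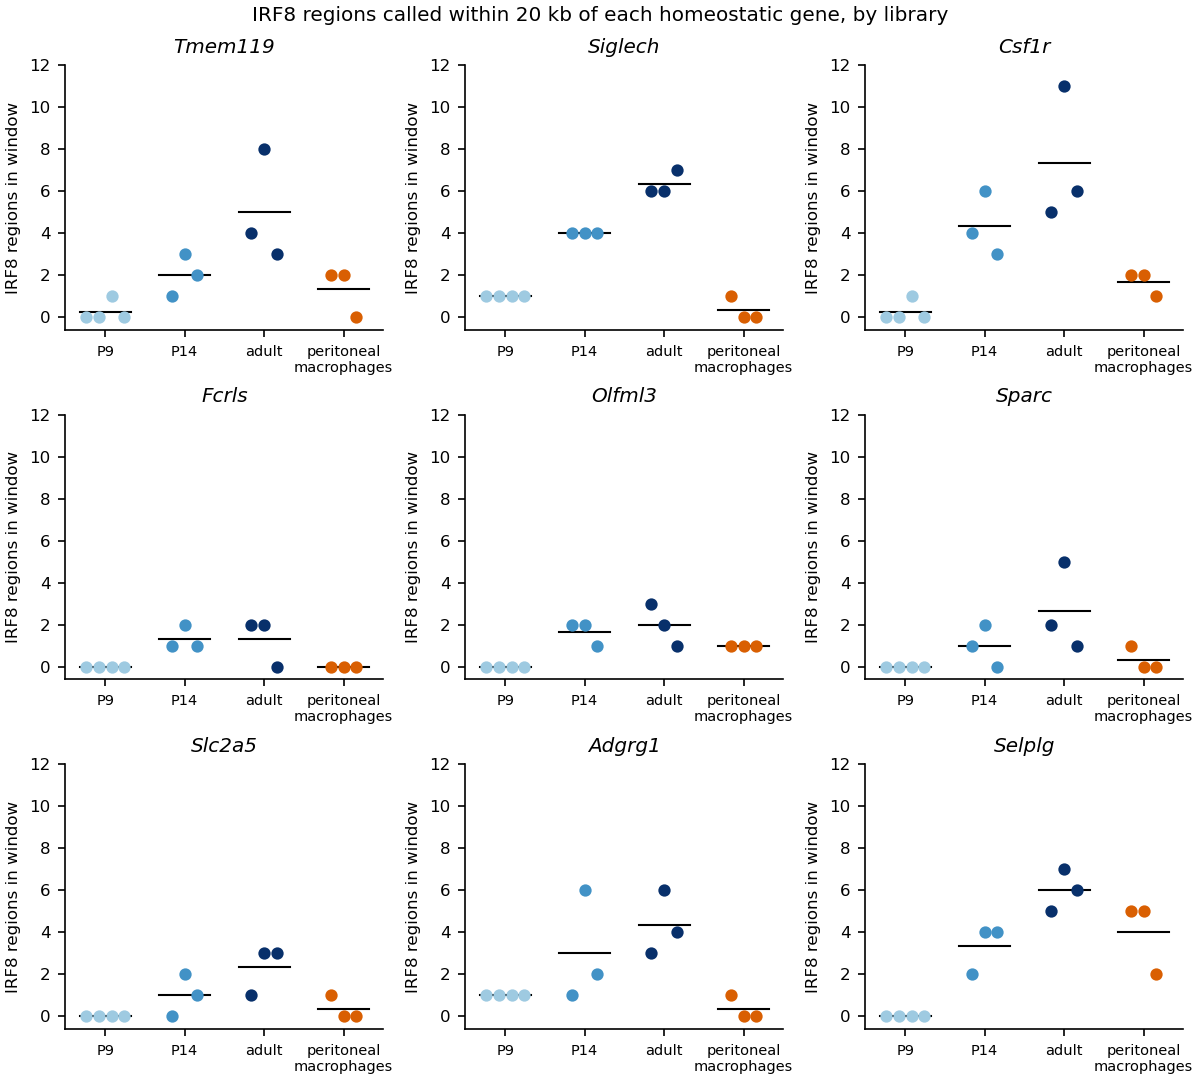
IRF8 regions in each gene window (y axis, number of regions) by group (x axis); each point is 1 library and each line the group mean. All P9 libraries hold 0 or 1 region per gene, and Siglech and Selplg are the genes whose 3 microglia stages do not overlap.

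The lists themselves lengthened with stage. Regions in the 9 windows made up 1.46 to 1.93 per 1000 listed at P9, 1.61 to 2.27 at P14 and 1.34 to 1.76 in adults, ranges that overlap. When each count was divided by the number of regions in its library, none of the 9 passed the same exact permutation test (adjusted p from 0.0843 to 0.606), Siglech and Adgrg1 pointed down, and 74 of the 16472 genes rose. The control library also changed with stage, so stage and control cannot be told apart. Without P9 replicate 1, 2, 3 or 4 the number of members that rose was 4 in each case (9.72 to 10.8% of all genes tested), without adult replicate 1 it was 5 (25.9%), and without adult replicate 2 it was 4 (12.2%).

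Consensus regions, those found in 2 or more libraries of a group after merging, located the binding. The 9 genes had 30 of all 16935 adult IRF8 consensus regions, against 2 of 1374 at P9, 18 of 8136 at P14 and 7 of 12063 in peritoneal macrophages. By centre, 11 of the 30 lay in introns, 10 between genes and 9 in exons, and 6 lay within 1 kb of an annotated start site. For 27 of the 30 the nearest start site belonged to the member itself. A peak of at least 1 P14 library overlapped 24 of the 30 (80% against 73.2% of all adult consensus regions), and a peak of at least 1 P9 library overlapped 4 (13.3% against 16.3%). The number of adult consensus regions at the members was 15, of 8742 in all, without adult replicate 2, the deepest adult library.

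The 2 P9 consensus regions were each called in all 10 microglia IRF8 libraries. The first lay 16.3 kb downstream of the Siglech start site (chr7:55783606-55785466 in adults, intergenic, between Siglech and Tubgcp5) and stood at a mean percentile of 96.9 within the adult lists ranked by the authors' −log10 p. Its fold enrichment over control, as the authors give it, was 6.98, 5.14, 4.61 and 5.25 at P9, 15.83, 16.67 and 10.83 at P14, and 17.80, 11.68 and 9.45 in adults. No peritoneal macrophage library had a peak there. The second lay 22.1 kb upstream of the Adgrg1 main start site (chr8:94954564-94955547, intergenic, crossing the edge of the window). Its folds were 9.19, 6.95, 6.02 and 6.38 at P9, 8.33, 9.03 and 4.10 at P14, and 7.68, 8.69 and 7.49 in adults. Of the 3 peritoneal macrophage libraries, replicate 1 had a peak at it.

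The strongest adult region of the whole set was in the first intron of Csf1r, 2.2 kb downstream of the main start site (chr18:61106850-61109204), at a mean percentile of 99. Its folds were 23.86, 23.71 and 21.11 in adults and 8.60, 9.48 and 7.09 in peritoneal macrophages, and at P9 it was called in replicate 3 alone. At Tmem119 the strongest region lay 22.5 kb downstream of the start site, centred on an untranslated exon of Iscu (chr5:113775775-113780300, percentile 95.2). It was called in all 3 adult and all 3 P14 libraries, in 2 of 3 peritoneal macrophage libraries and in 1 of 4 P9 libraries. A weaker Tmem119 region in the first intron, 3.8 kb downstream of the start site (chr5:113796275-113797163), was called in 2 adult libraries and 1 P14 library, in no P9 or macrophage library, and held no PU.1 or H3K27ac peak.

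Selplg had 4 adult consensus regions, the strongest 11.3 kb upstream of its main start site (chr5:113839949-113843582, percentile 90.8), and each of the 4 was called in all 3 adult libraries and in 2 of 3 peritoneal macrophage libraries. At Olfml3 the strongest region lay 9.7 kb downstream of the main start site, in an intron of a longer Olfml3 model (chr3:103727942-103728639, percentile 90.7). It was called in all 3 P14 and all 3 peritoneal macrophage libraries, and in adult replicates 1 and 2. At Sparc the strongest region lay 10.0 kb upstream (chr11:55432780-55433646, percentile 87.7), in 2 P14 and 2 adult libraries. The strongest Fcrls region covered its start site (chr3:87263321-87263838, percentile 73.3), also in 2 P14 and 2 adult libraries. Slc2a5 had 1 adult consensus region, in its second intron 1.2 kb downstream of the start site (chr4:150120189-150120767, percentile 66.9), called in all 3 adult and 2 of 3 P14 libraries. Neither the Sparc, the Fcrls nor the Slc2a5 region had a peak in peritoneal macrophages.

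**Figure D2:**
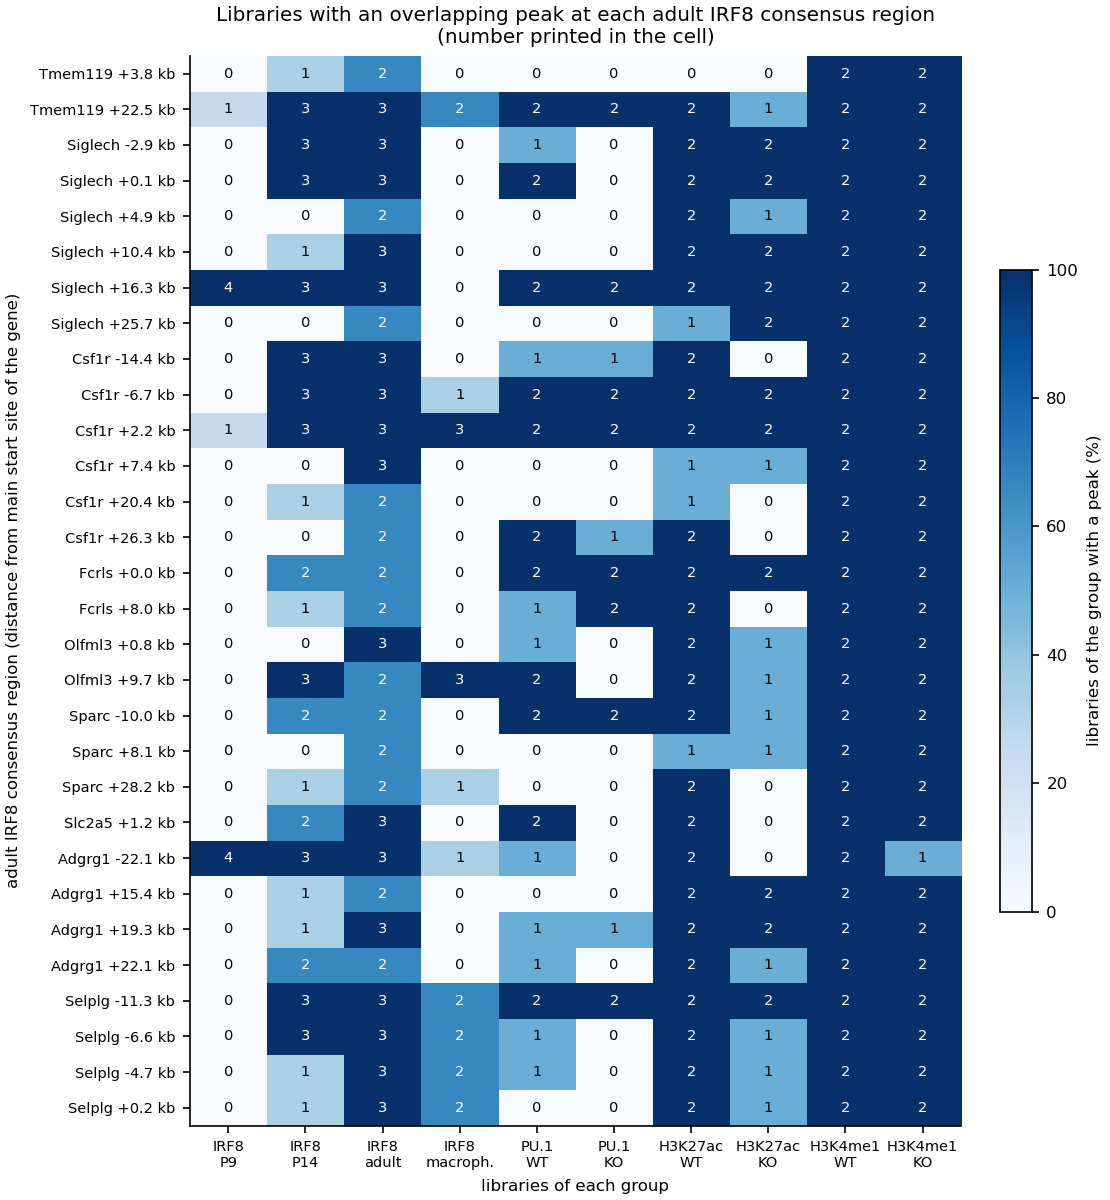
Each row is 1 of the 30 adult IRF8 consensus regions, named by gene and distance in kb from the main start site (plus is downstream), and each column a group of libraries; colour is the percentage of libraries with an overlapping peak and the printed number their count. The Siglech +16.3 kb and Adgrg1 -22.1 kb rows are filled at P9, and the H3K4me1 columns show both libraries in every row except Adgrg1 -22.1 kb in KO.

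The second comparison set adult microglia beside peritoneal macrophages. IRF8 regions were more numerous in every adult library than in any macrophage library at 4 of 9 genes, Tmem119, Siglech, Csf1r and Adgrg1, against 7.24% of all protein-coding genes. The reverse held for 0 of 9, against 1.15%. Siglech had 6, 6 and 7 regions in adults and 1, 0 and 0 in macrophages, Adgrg1 3, 6 and 4 against 1, 0 and 0, Csf1r 5, 11 and 6 against 2, 2 and 1, and Tmem119 4, 8 and 3 against 2, 2 and 0. Of the other members, Selplg had 5, 7 and 6 regions in adults and 5, 5 and 2 in macrophages, so that the groups met at 5, and Olfml3 had 1 region in each macrophage library. Fcrls had none in any macrophage library. A macrophage peak overlapped 10 of the 30 adult consensus regions, or 33.3%, against 60.1% of all adult consensus regions.

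With 3 libraries in each group the smallest exact p is 0.1, so no test was made. Batch 1 holds replicates 1 and 2 of both groups and batch 2 replicate 3 of both. Within batch 1 alone, 7 of 9 members were higher in adults (14.1% of all genes), and without adult replicate 3 it was also 7 (12.9%). At a −log10 p of at least 10 it was 3 (5.58%), and with every list shortened to the length of the shortest it was 1 (1.01%). The number of regions per 1000 listed in the 9 windows was 1.34 to 1.76 in adults and 0.409 to 0.604 in peritoneal macrophages, with no overlap. The control library differed between the tissues.

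The members were set beside 2 lists of related genes. All 20 of 20 other homeostatic microglia genes, among them P2ry12, Cx3cr1 and Sall1, rose over the stages, as did 9 of 10 macrophage lineage genes shared by tissues, the exception being Cebpa (exact permutation test as above), beside 46.0% of all genes tested. As above, with counts divided by list length 74 of the 16472 genes rose. In adults against peritoneal macrophages, 8 of the 20 homeostatic genes were higher without overlap and 0 of the 10 lineage genes were, beside 7.24% of all genes. Every macrophage library had an IRF8 region at 3 of the 9 members, 13 of the 20 other homeostatic genes, 8 of the 10 lineage genes and 24.3% of all protein-coding genes. The median number of regions per gene was 4.33 in adults and 0.333 in macrophages for the members, 6 and 3.17 for the other homeostatic genes, 4.67 and 3.5 for the lineage genes, and 1 and 0.667 for all protein-coding genes.

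The profile over all 25 libraries was compared with that of every other gene, as log2 of the number of regions plus 1 less the library mean. The 5 genes most like the mean of the 9 members were Ubash3b (Pearson r = 0.95), Rapgef1 (0.94), Tbpl1 (0.89), Olfr111 (0.88) and Umps (0.87). The members' own values against that mean ran from 0.57 for Olfml3 to 0.89 for Tmem119. These correlations share libraries and targets and are a description.

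PU.1 met IRF8 at 11 of the 30 adult IRF8 regions, or 36.7% (95% Clopper-Pearson interval 19.9 to 56.1%), against 27% of all adult IRF8 consensus regions. WT H3K27ac regions overlapped 26 of 30, against 81.8%, and WT H3K4me1 regions overlapped 30 of 30, against 91.3%. All 11 WT PU.1 consensus regions of the members overlapped an adult IRF8 consensus region, as did 87.4% of all WT PU.1 consensus regions. Csf1r had 3 of them, Siglech 2, and Tmem119, Fcrls, Olfml3, Sparc, Slc2a5 and Selplg 1 each. Adgrg1 had 2 PU.1 regions in each WT library but none shared by both.

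PU.1 sites are shown as sequence to set sites that were lost in the knockout (Olfml3 and Slc2a5) beside sites that were kept (Siglech and Sparc). Each runs for 100 bases to each side of the strongest PU.1 summit on the plus strand (RefSeq GRCm38.p6). Capitals mark a match, on either strand, to the composite ETS-IRF motif (GGAA, 2 bases of any kind, then GAAA), the interferon-response-like motif (GAAA, 2 bases of any kind, then GAAA) or the ETS core GGAAGT.
Olfml3, chr3:103728138-103728338, lost: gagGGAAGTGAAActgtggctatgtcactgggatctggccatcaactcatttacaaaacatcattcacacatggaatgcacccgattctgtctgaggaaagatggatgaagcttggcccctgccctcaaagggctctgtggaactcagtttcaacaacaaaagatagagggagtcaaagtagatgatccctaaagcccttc
Slc2a5, chr4:150120328-150120528, lost: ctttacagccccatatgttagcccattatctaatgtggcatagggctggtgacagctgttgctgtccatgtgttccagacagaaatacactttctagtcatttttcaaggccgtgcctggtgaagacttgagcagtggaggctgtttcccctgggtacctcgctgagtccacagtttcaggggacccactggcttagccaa
Siglech, chr7:55784404-55784604, kept: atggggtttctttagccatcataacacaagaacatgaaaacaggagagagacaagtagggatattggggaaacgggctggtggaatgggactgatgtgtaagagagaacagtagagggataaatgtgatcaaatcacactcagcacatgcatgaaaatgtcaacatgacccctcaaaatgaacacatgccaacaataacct
Sparc, chr11:55432849-55433049, kept: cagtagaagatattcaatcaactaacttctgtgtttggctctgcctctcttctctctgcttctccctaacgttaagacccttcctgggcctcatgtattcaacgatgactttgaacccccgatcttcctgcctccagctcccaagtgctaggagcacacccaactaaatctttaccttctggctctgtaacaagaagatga

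The Olfml3 site holds a composite match that starts at base 4 of the run shown, and its first bases are also a match to the ETS core. The other 3 runs hold none of the 3 motifs. Over all 11 WT PU.1 regions of the members, 1 held the composite motif within 100 bp of the summit (4.22% of all 5359 WT PU.1 consensus regions), 0 the interferon-response-like motif (3.25%) and 4 the ETS core (25.8%). The sites with the ETS core were the lost one at Olfml3 and kept ones at Selplg and Csf1r, which are not shown. Within 100 bp of the centre of the 30 adult IRF8 regions, 0 held the composite motif (6.28% of all 16935 adult IRF8 consensus regions), 1, at Selplg, the interferon-response-like motif (4.20%) and 8 the ETS core (26.3%). The centre of a merged region can lie away from its summits: the composite match at Olfml3 lies inside the adult IRF8 region there but outside the 100 bp around its centre. A match is a run of letters and not a measured site, and a region without one may hold a variant that was not searched.

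The third comparison asked what changed at the 9 genes in microglia without IRF8. PU.1 was called again at 8 of its 11 sites in at least 1 KO library, H3K27ac covered less of all 9 windows in both KO libraries than in both WT libraries (42.6% of all genes with a region), and none of the H3K4me1 regions was lost (13.0% of all regions). Of the 11 WT PU.1 consensus regions, 3 were lost, meaning that neither KO library had a peak there, or 27.3% (95% Clopper-Pearson interval 6.02 to 61%), against 25.1% of all WT PU.1 consensus regions. With 1 WT library alone, where each of its peaks counts as a region, the share was 47.4% without WT PU.1 replicate 1 (47.7% of all regions) and 47.6% without WT PU.1 replicate 2 (58.6%), and at a −log10 p of at least 10 it was 14.3% (28.1%). None of the 9 KO PU.1 consensus regions was absent from WT, against 16.5%; without KO PU.1 replicate 1, where any peak of replicate 2 counts as a region, the share was 47.1% (58.2% of all regions). With 2 libraries in each group the smallest exact p is 0.333, so no test between genotypes was made for any target.

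The lost PU.1 regions were at Siglech, Olfml3 and Slc2a5. Replicate 2 of each genotype was called at q 0.05 and against another IgG control than replicate 1. With every PU.1 library held to q 0.01, 2 of 10 regions were lost (25.2% of all regions), those at Olfml3 and Slc2a5, and the Siglech region was left in WT replicate 1 alone. Over all WT PU.1 consensus regions, 23.2% of those with an adult IRF8 consensus region and 38.3% of those without one were lost. The Siglech region covered the start site (chr7:55767915-55768444), and its fold over control was 6.56 and 3.18 in WT. IRF8 was called there in all 3 P14 and all 3 adult libraries. The Olfml3 region (chr3:103728117-103728421) had folds of 7.57 and 4.14 in WT, and the Slc2a5 region (chr4:150120324-150120766) 8.07 and 5.41. The PU.1 peaks kept in both KO libraries included those at the strongest adult IRF8 regions of Csf1r, Siglech, Tmem119, Selplg, Sparc and Fcrls. At the first Csf1r intron the PU.1 folds were 11.60 and 12.22 in WT and 11.71 and 10.59 in KO, and at the region downstream of Siglech they were 10.59 and 7.93 in WT and 7.29 and 10.20 in KO.

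**Figure D3:**
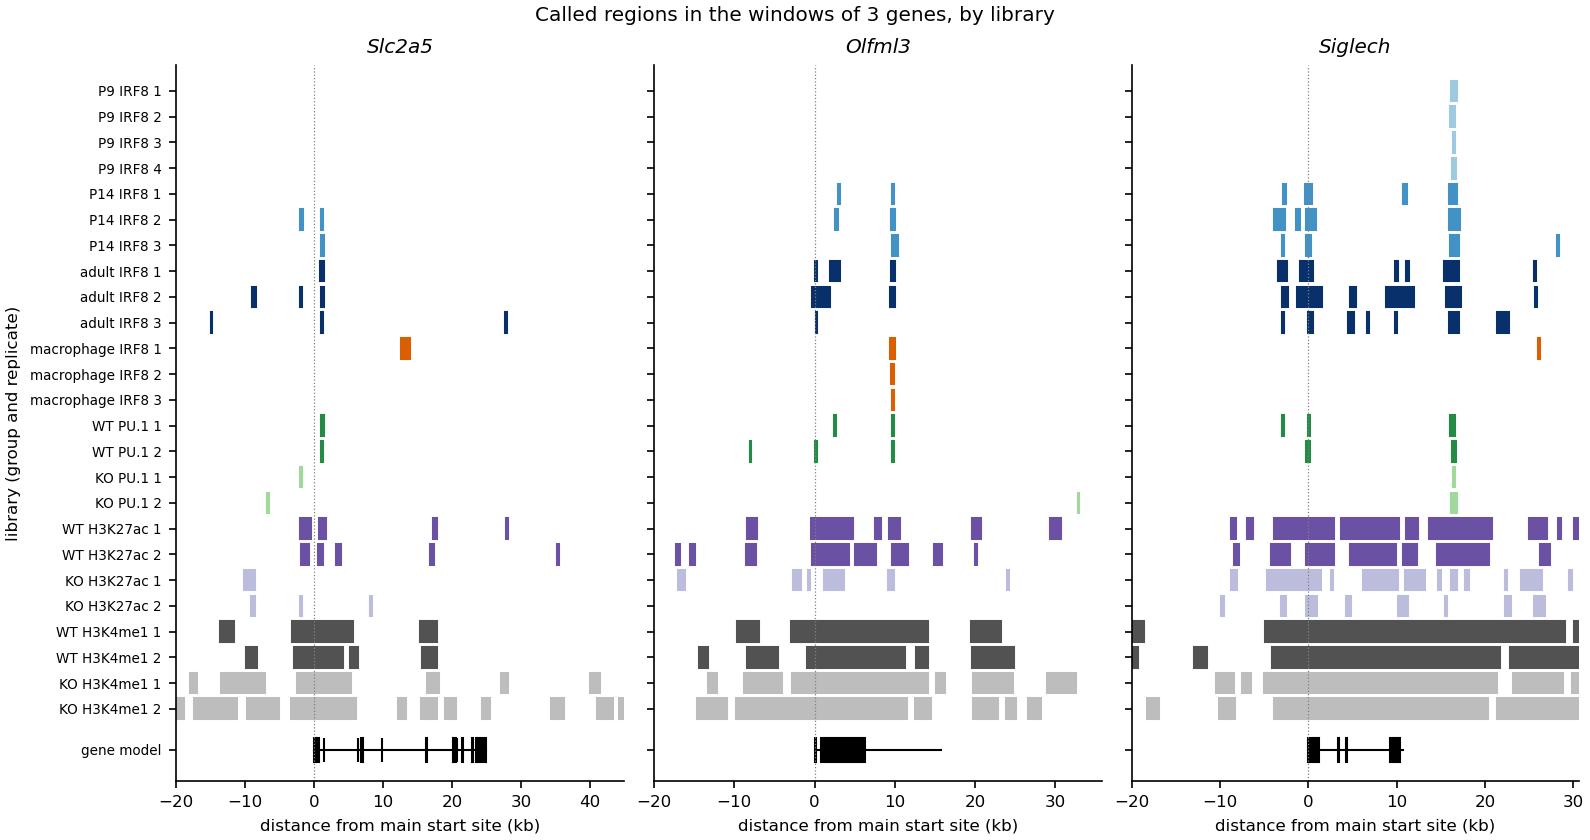
Called regions in the windows of Slc2a5, Olfml3 and Siglech by distance from the main start site in kb (x axis), with 1 row per library and the gene model below. PU.1 boxes at Slc2a5 +1.2 kb and Olfml3 +9.7 kb appear in both WT rows and in neither KO row, while the Siglech +16.3 kb box appears in all 4 PU.1 rows.

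H3K27ac was measured in 2 ways, by whole regions and by the share of each window that regions covered. Of 48 WT H3K27ac consensus regions, 20 were lost, or 41.7% (95% Clopper-Pearson interval 27.6 to 56.8%), against 34.0% of all WT H3K27ac consensus regions, a share that lies inside the interval. The interval treats regions as independent, although they share windows and libraries, so it is not a test. Losses were 4 of 7 regions at Sparc, 3 of 5 at Olfml3, 3 of 6 at Tmem119, 3 of 6 at Csf1r, 3 of 7 at Adgrg1, 2 of 4 at Fcrls and 2 of 3 at Slc2a5. Siglech lost 0 of 6 and Selplg 0 of 4, where a KO peak overlapping by at least 1 bp was enough to keep a region. At the strongest adult IRF8 region of Siglech the H3K27ac folds were 13.84 and 17.67 in WT and 3.82 and 4.31 in KO. The Selplg regions 0.2, 4.6 and 6.9 kb upstream kept a peak in 1 of 2 KO libraries, and the one 11.2 kb upstream in both. Of the 16 KO H3K27ac consensus regions, 2 were absent from WT, against 10.9%: 1 lay 22.6 kb downstream of the Siglech start site (chr7:55790469-55791218) and 1 lay 9.4 kb upstream of Slc2a5 (chr4:150109129-150110692). With 1 library left out the share absent from WT was 12.5 to 26.1% (14.1 to 55.9% of all regions).

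Slc2a5 was the member at which IRF8, PU.1 and H3K27ac met at 1 place and the last 2 were lost. Its H3K27ac region in the second intron (chr4:150119804-150121042) had folds of 10.18 and 8.51 in WT and no peak in KO, and a further region 17.3 kb downstream (chr4:150136064-150137123) was also lost. H3K4me1 stayed over the intronic site, with folds of 2.97 and 2.95 in WT and 3.44 and 3.42 in KO. At Adgrg1 the region 22 kb upstream, bound by IRF8 from P9 onward, lost its H3K27ac peak (chr8:94954973-94955328, folds 4.03 and 3.67 in WT). Adgrg1 regions 9.9 kb upstream (chr8:94966490-94967923) and 37.2 kb downstream (chr8:95013689-95014917) were lost as well.

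At Csf1r the lost H3K27ac regions lay 14.8 kb upstream (chr18:61090310-61091847, folds 8.64 and 9.49 in WT), 15.2 kb downstream (chr18:61120551-61121475) and 25.9 kb downstream (chr18:61131247-61132261), while the regions at the main start site and in the first intron kept a peak in 1 of 2 KO libraries and the region 6.6 kb upstream in both. At Tmem119 all 3 lost regions lay downstream of the start site, by 19.4 kb (chr5:113780615-113781610), 13.8 kb (chr5:113786064-113787422) and 10.1 kb (chr5:113789737-113791081). Fcrls lost regions 10.5 kb (chr3:87252138-87254098) and 7.9 kb (chr3:87254758-87256687) downstream, and kept the one over its start site. Olfml3 lost regions 20.1 kb downstream (chr3:103717333-103718426), 6.7 kb downstream (chr3:103729688-103732930) and 7.8 kb upstream (chr3:103745197-103746506). Sparc lost regions 28.2 kb downstream (chr11:55394729-55395146), 11.4 kb downstream (chr11:55410921-55412602), 7.8 kb upstream (chr11:55430147-55431847) and, farther upstream, chr11:55436741-55437631.

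Of the 20 lost H3K27ac regions, 6 overlapped an adult IRF8 consensus region, or 30.0% against 21.7% of all lost H3K27ac regions. A peak of at least 1 adult library overlapped 11, or 55.0% against 37.2%. Before any loss, 70.8% of the 48 WT regions had such a peak, against 53.6% of all WT regions. Loss reached 6 of 24 regions that overlapped an adult IRF8 consensus region (25%) and 14 of 24 that did not (58.3%). Over all WT H3K27ac consensus regions the same shares were 21% and 41.2%, so the order of the 2 classes was that of all regions. A wider region is more easily overlapped both by an IRF8 region and by a KO peak, and width was not taken into account. Within 1 kb of a start site, both WT libraries had H3K27ac at 8 of 9 members, all but Tmem119, and both KO libraries at 5 of 9, which were Siglech, Csf1r, Fcrls, Sparc and Adgrg1. Among all 21938 protein-coding genes the numbers were 8390 and 2726.

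The share of a window covered by H3K27ac regions was lower in both KO libraries than in both WT libraries at 9 of 9 members, against 42.6% of all genes with a region. This measure was added after the data had been seen. Siglech had the widest coverage, 51.1 and 38.6% in WT and 34.5 and 11.9% in KO. Tmem119 had 15.7 and 19.7% in WT and 6.03 and 3% in KO, Csf1r 15 and 18.5% against 8.67 and 6.08%, and Adgrg1 18.4 and 19.4% against 9.84 and 1.39%. Olfml3 had 19.5 and 22.9% in WT and 9.99% in KO replicate 1, and in KO replicate 2 no H3K27ac region lay in its window. For the other 4 genes WT values ran from 5.29 to 25.6% and KO values from 1.76 to 12.7%, with no overlap within a gene. The reverse order, with KO above WT, occurred at 0 of 9 members and 5.50% of all genes.

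KO H3K27ac replicate 2 was the shallow library, and its part was measured by leaving it out. Without it, the covered share was still lower in KO at 9 of 9 members (45.2% of all genes), and 52.1% of the 48 regions had no peak in the KO (37.3% of all regions). With replicate 2 as the only KO library 66.7% had none, below the 72.9% of all regions. The H3K27ac regions in the windows of the 6 border macrophage markers summed to 32 and 37 in WT and to 67 and 31 in KO. Among these 6, Pf4 (2 and 2 in WT, 11 and 6 in KO) was higher in both KO libraries, Lyve1 (7 and 7 in WT, 6 and 2 in KO) was lower in both, and Mrc1, Cd163, F13a1 and Ms4a7 met or overlapped between genotypes. For the 7 microglia markers the sums were 80 and 70 in WT and 64 and 43 in KO. The sums were 34 and 34 in WT and 21 and 7 in KO for endothelial markers, 36 and 32 against 27 and 9 for oligodendrocyte markers, 21 and 19 against 19 and 7 for astrocyte markers, and 22 and 26 against 27 and 8 for peritoneal macrophage markers. They were 9 and 11 against 26 and 6 for neuron markers, 8 and 10 against 9 and 6 for B cell markers, and 0 and 2 against 7 and 2 for neutrophil markers. The part of other cells in the H3K27ac results was not tested. The deposited KO H3K27ac libraries are 2 of 3 that the labels say were made.

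**Figure D4:**
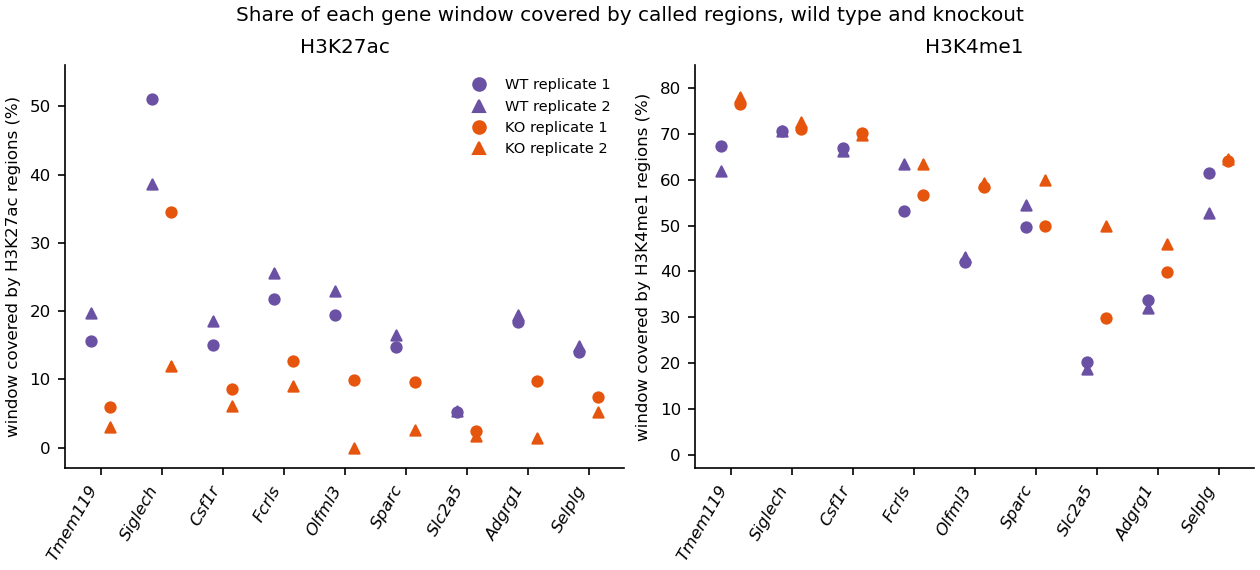
Share of each gene window covered by called regions (y axis, %) for H3K27ac (left) and H3K4me1 (right); purple is WT, orange is KO, circles are replicate 1 and triangles replicate 2. All orange points lie below all purple points of the same gene for H3K27ac, and for H3K4me1 no gene shows that order.

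H3K4me1 did not follow H3K27ac, though the 2 marks were called with different settings. None of 26 WT H3K4me1 consensus regions was lost (0%, 95% Clopper-Pearson interval 0 to 13.2%), against 13.0% of all WT H3K4me1 consensus regions, and 3 of 28 KO consensus regions were absent from WT, against 23.8%. With 1 library left out, the lost share ran from 0 to 9.52% (19.0 to 44.1% of all regions). The WT consensus regions of the members were 1761 bp (Fcrls) to 40367 bp (Siglech) wide. Single peaks of the 2 WT lists had medians of 1791 and 1681 bp. A KO peak overlapping by 1 bp keeps a region, which a wide region reaches more easily, and width was not taken into account. Without KO H3K4me1 replicate 1 the share absent from WT was 33.9% (56% of all regions), and without KO H3K4me1 replicate 2 it was 27.3% (41.7%). The 3 lay in the windows of Siglech (chr7:55757744-55759886), Slc2a5 (chr4:150159296-150162521, inside Slc2a7) and Adgrg1 (chr8:95029633-95034226, inside Adgrg3). The covered share was lower in both KO libraries at 0 of 9 members, against 6.09% of all genes, and higher in both at 7 of 9, against 47.7%. Slc2a5 went from 20.3 and 18.6% in WT to 29.8 and 49.8% in KO and Olfml3 from 42 and 43.2% to 58.4 and 59.3%, whereas Fcrls (53.1 and 63.4% in WT, 56.7 and 63.5% in KO) and Sparc (49.6 and 54.5% in WT, 49.9 and 59.9% in KO) overlapped. KO H3K4me1 replicate 2 was the deepest of its kind, with 23.9 M fragments and 468 Mb covered, against 293 to 321 Mb in the other 3.

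**Figure D5:**
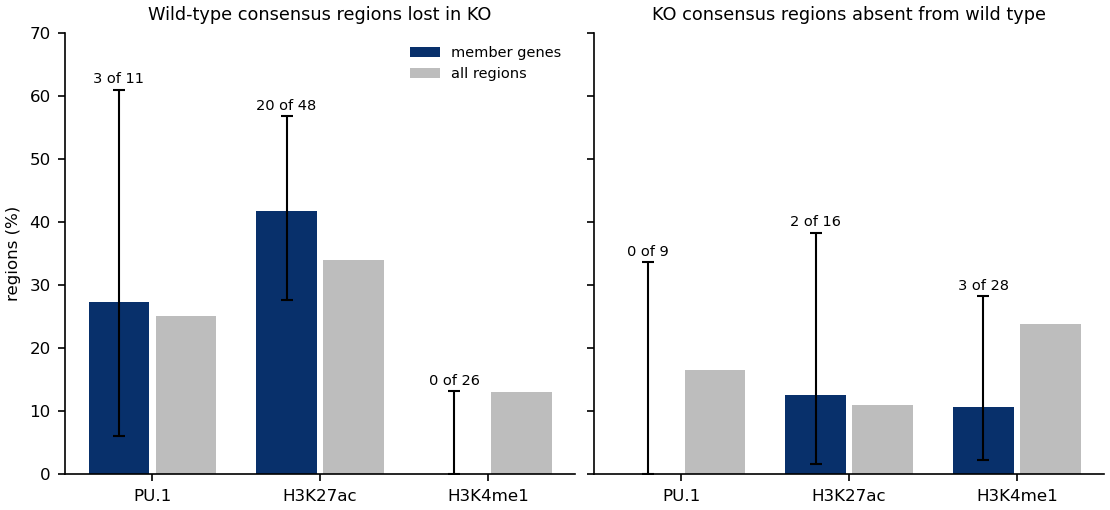
Percentage of WT consensus regions lost in KO (left) and of KO consensus regions absent from WT (right) for each target; dark bars are the regions of the 9 genes with 95% Clopper-Pearson intervals and their counts, and grey bars all regions of the series. The grey bar lies inside the interval of the dark bar for each of the 6 pairs, but the intervals treat regions as independent and are not a test.

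The other homeostatic genes and the lineage genes were read in the same way. PU.1 was lost at 11 of 50 regions of the 20 other homeostatic genes (22%) and at 0 of 14 regions of the 10 lineage genes. H3K27ac was lost at 26 of 143 regions of the other homeostatic genes (18.2%), at 13 of 45 of the lineage genes (28.9%) and, as above, at 20 of 48 of the 9 members (41.7%). Over all regions the lost shares were 25.1% for PU.1, 34.0% for H3K27ac and 13.0% for H3K4me1. H3K4me1 was lost at 3 of 86 regions of the other homeostatic genes and at 0 of 41 of the lineage genes. The difference between the lists was not tested.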

How the data were processed

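CUT&RUN peak lists of 25 libraries in 10 groups were used. Per the submitters' processing notes, reads were handled with bcl2fastq, Trim Galore, Bowtie2, deepTools and MACS2 on mm10. Per the file headers, peaks were called for each library separately with MACS 2.2.7.1 (IRF8, PU.1) or 2.2.6 (histone marks) against an IgG control, at q 0.01, at q 0.05 for PU.1 replicate 2, and at p 0.01 for H3K4me1, called as broad regions with a minimum length of 1000 bp. Regions up to 640 bp apart were joined in the lists other than H3K4me1. The authors deposited with each peak a −log10 p, a −log10 q and a fold enrichment ratio over control; these are the authors' values and were used to describe or order peaks of the same list or to set a stricter threshold. Reads were pairs of 35 nt, and cells for transcription factors were crosslinked in 1% PFA for 10 min, per the labels. The P9 lists are 4 of 7 made. Titles set the groups, since the source field says microglia for the peritoneal macrophages too.

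A peak list repeats a region per summit; each position was counted once. Windows, consensus regions (peak in at least 2 libraries) and overlaps (at least 1 bp) were computed in Python 3.11.15 with numpy 2.4.6, pandas 2.3.3 and scipy 1.17.1; sequences were read with pysam 0.24.0. All peaks lie within GRCm38 chromosome lengths. A lost region is a WT consensus region with no peak in either KO library, and a gained region the reverse. The stage trend used the exact Jonckheere-Terpstra permutation test (4200 assignments), Benjamini-Hochberg adjusted over 16472 genes, called at 0.05, and was tested on simulated data. There, unchanged genes had the same mean in every library, so lists that lengthen with stage were not covered. Start sites are those of the principal GENCODE transcript. Intervals are 95% Clopper-Pearson and cover counting error only. They treat regions as independent, although regions share windows and libraries. The members and gene lists were chosen with earlier results of these data known. The text names all 9 members, the strongest adult IRF8 region of each, each PU.1 or H3K27ac region lost or gained, and the 5 genes of most similar profile. The sequences shown, the H3K4me1 regions named, the motifs at PU.1 summits and the covered shares were chosen after their values were seen. Replicate numbers did not pair libraries of different stages (correlations of deviations from -0.05 to 0.22). Other windows, thresholds, list lengths, overlap rules and left-out libraries were tried as alternatives.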

Additional observations from a re-analysis of the deposited data

Results flagged for a closer look

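At P9, replicate 3 stood apart from the other 3 libraries. It had an IRF8 region at 4 members and 4 distinct IRF8 regions in the 9 windows, against 2 and 2 in each of the others, and 1 region at Tmem119 and 1 at Csf1r where the others had 0. It was also the longest P9 list, with 2068 distinct regions against 1168 to 1366, and the deepest, with 20.9 M fragments. Per 1000 regions listed it had 1.93 in the windows, against 1.46 to 1.71. The gap test for groups of 4 was applied to 5 sets of values that were not all equal. Its rate of about 1 group in 20 by chance is for continuous values. Counts with 3 equal values and 1 other are always marked, so that rate does not hold here. The 4 marked sets share the same library and rest on its regions at Tmem119 and Csf1r. Without P9 replicate 3, 4 of 9 members rose with stage, the same number as without any other P9 library.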

How the results depend on the processing

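Of 212 recomputed values for 21 results, 174 stayed within 1.5 times of a count or inside the interval of a share, which is wide for shares of few regions. Shares in parentheses after a value are those of all genes or regions under the same setting. The number of members that rose with stage (8) was 3 for gene bodies alone (18.4%), 4 when a −log10 p of 10 or more was required (16.8%), 0 with every list shortened to the length of the shortest of its target (0.00%), 0 with counts divided by list length (0.449%), and 4 to 9 with 1 library left out (9.72 to 49.6%). With the replicate number as a block it was 0 (adjusted p from 0.103 to 0.324, exact permutation test over 216 assignments); the numbers do not pair these libraries. Members with IRF8 in every adult library (8) numbered 5 at the −log10 p of 10 (19.8%), 2 with shortened lists (2.71%) and 8 to 9 with 1 library left out (41.5 to 48.5%). Adult consensus regions (30 of 16935 in all) numbered 19 of 9171 at that threshold, 4 of 981 with shortened lists and 17 of 8606 when every library had to have the peak. With 1 library left out they numbered 15 to 25, of 8742 to 14769 in all. Members higher in adults than in macrophages (4) numbered 1 with shortened lists (1.01%), 7 in batch 1 (14.1%), and 4 to 7 with 1 library left out (7.59 to 13.0%). The share of adult regions with PU.1 was 100% with shortened lists (4 of 4 regions; 75.6%), that with H3K27ac 68.4% at the −log10 p of 10 (64.6%) and 100% with shortened lists (84.6%), and that with H3K4me1 0% at the −log10 p of 10 (0.502%). H3K27ac loss (41.7%) was 57.9% at that threshold (50.7%), 70.8% when absence from the KO consensus was enough (78.4%), and 52.1 to 66.7% with 1 library left out (37.3 to 72.9%). KO H3K27ac regions absent from WT (12.5%) were 0% for gene bodies alone (10.9%), at the −log10 p of 10 (8.03%) and with shortened lists (13.5%), and 12.5 to 26.1% with 1 library left out (14.1 to 55.9%). PU.1 loss (27.3%) was 50% for gene bodies alone (3 of 6 regions; 25.1%), 14.3% at the −log10 p of 10 (28.1%) and 27.3 to 47.6% with 1 library left out (35.6 to 58.6%). KO PU.1 regions absent from WT (0%) were 22.2% when absence from the WT consensus was enough (39.1%) and 0 to 47.1% with 1 library left out (24.3 to 58.2%). H3K4me1 loss was 0 to 9.52% with 1 library left out (19.0 to 44.1%). KO H3K4me1 regions absent from WT were 0% for gene bodies alone (23.8%) and 10.7 to 33.9% with 1 library left out (32.6 to 56%). Members with higher H3K4me1 coverage (7) numbered 3 for gene bodies alone (38.4%) and 0 at the −log10 p of 10 (6.30%). The interferon-response-like motif share (3.33%) was 0% for gene bodies alone (4.20%) and with shortened lists (3.57%). The cause of these shifts was not tested. At a −log10 p of 10 no H3K4me1 consensus region was left in the 9 windows, so its loss and gain have no value there. A peak missing from a shallow list may lie below the calling threshold, and the deposited lists hold no counts with which to tell.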
